A study of Mus musculus with 15 samples.

Results

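The nuclear genes of the mitochondrial respiratory chain were followed across microdissected mouse lung. A gene was taken as a member where its symbol in the array annotation placed it in complex I (Ndufa, Ndufb, Ndufc, Ndufs and Ndufv genes), complex II (Sdha to Sdhd), complex III (Uqcr genes), complex IV (Cox4 to Cox8 genes) or complex V (Atp5 genes). Of 18193 genes measured, 90 were members. Complex I held 44 of them, of which 8 are Ndufaf assembly factors and not subunits. Complex II held 4, complex III 8, complex IV 17 and complex V 17. A further 8 matching symbols, Ndufa11 and Ndufs6 among them, stood only on probe sets shared with other genes and were not used. The rule uses gene names only, and where a gene had several probe sets the one with the highest mean signal stood for it.

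The respiratory chain sits in the inner mitochondrial membrane. Complexes I and II pass electrons from NADH and succinate to ubiquinone, complex III passes them on to cytochrome c, and complex IV hands them to oxygen. The proton gradient built on the way drives complex V, the ATP synthase. Apart from complex II, which is encoded wholly in the nucleus, each complex also has subunits made from mitochondrial DNA, which are not among the members. In the lung, alveolar type 2 cells, which make surfactant, are rich in mitochondria.

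The samples were 15 laser-captured cell groups, each hybridised to 1 array. They came from frozen lung sections of mice with a K-RasG12V knock-in allele, an oncogenic form of K-Ras, taken 3 months after adenovirus had carried Cre recombinase into the animals. There were 3 hyperplastic lesions of subtype H1, 4 lesions of subtype H2 and 8 samples of normal cells, so the mice behind the normal cells carried the allele and received the virus too. Each lesion was a capture of about 500 cells. A colour marker expressed from the allele identified the lesion cells. The sources used here state neither the age and number of the animals, nor which captures shared an animal, nor the basis of the split into H1 and H2. P-values over captures may be too small where captures shared an animal, and a split made on these profiles would leave the differences between H1 and H2 a description. All values below are log2 signals, on which a difference of 1 is a doubling. Levels are given as mean ± SD, and the ± after a difference is its standard error in the fit.

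Array quality and tissue makeup differed between the samples. The spread of an array, taken as the SD of its gene values, ranged over 1.31–1.49 in H1, 1.52–1.78 in H2 and 1.14–1.67 in normal arrays. The array medians of all genes lay close together, at 4.30–4.37 in H1, 4.26–4.39 in H2 and 4.32–4.46 in normal arrays. Normal replicate 2 had the narrowest spread, and the surfactant gene Sftpc read 4.87 there, against 8.52–13.41 on the other 7 normal arrays. In normal replicate 3 the cardiac myosin Myh6 read 9.67, against 2.01–3.30 on the other 7. The number of called members and the median member difference in H2 against normal are given with and without these 2 arrays. The median of 9 type 2 cell markers was 7.94–9.53 in H1 and 8.71–10.70 in H2 lesions, against 4.51–9.99 in normal samples. Of 10 endothelial markers the median was 4.64–4.71 in H1 and 4.22–4.79 in H2 lesions, against 4.57–6.58 in normal samples. For 8 macrophage markers it was 4.77–5.70 in H1 and 5.61–6.11 in H2 lesions, against 4.07–6.34 in normal samples. For 7 markers of alveolar type 1 cells it was 6.2–7.2 in H1 and 6.6–7.1 in H2 lesions, against 4.4–9.4 in normal samples.

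The members as a whole were compared first. Their median log2 signal on an array averaged 5.87 ± 0.21 in H1 (n = 3) and 6.44 ± 0.35 in H2 (n = 4), against 5.64 ± 0.66 in normal samples (n = 8). The H1 arrays read 5.63, 5.93 and 6.04. The H2 arrays read 6.19, 6.25, 6.36 and 6.94. The normal arrays ran from 4.57 in replicate 2 through 5.23–5.95 to 6.86 in replicate 3. H2 replicate 7 was thus the highest array and normal replicate 2 the lowest, and replicate 3 was the one normal array that reached the H2 range. Ranked within its own array, the median member stood at percentile 84.5 ± 1.4 in H1 and 86.7 ± 1.1 in H2, against 79.4 ± 9.1 in normal samples. By this rank normal replicate 3, at 89.2, stood above the H2 arrays, at 85.3–88.0. H2 replicate 7 held the highest value of 36 of the 90 members (40.0%), against 11.9% of all genes. Normal replicate 2, the array of narrowest spread, held the lowest value of 33 members. The share of all genes lowest on that array was not counted, so this number has no background beside it.

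**Figure D1:**
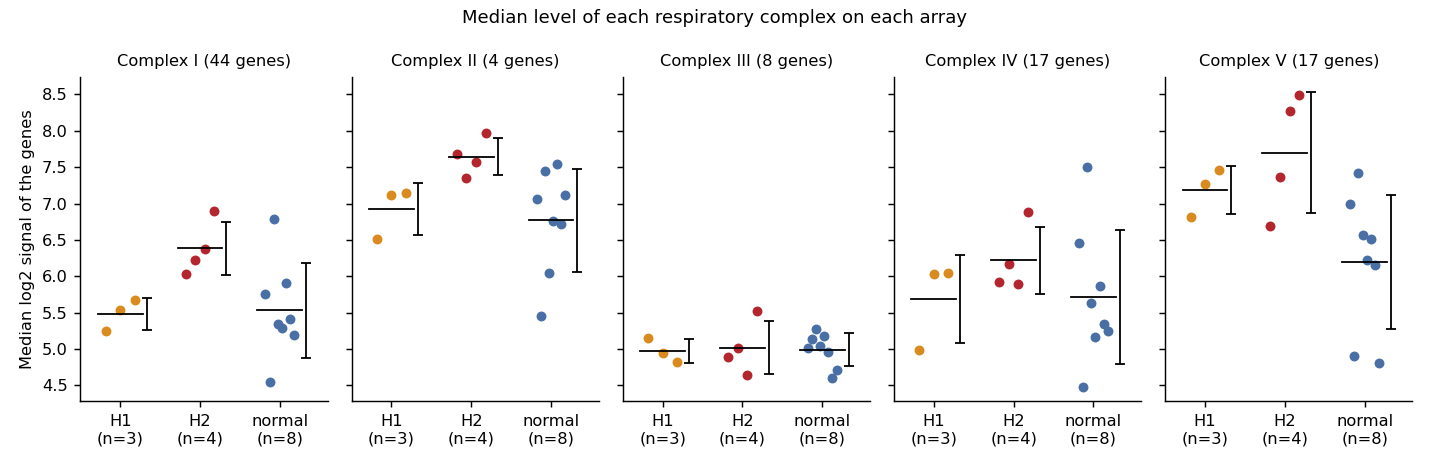
Median log2 signal of the members of each complex on each array. Points are arrays, horizontal bars are group means and error bars 1 SD; the 4 H2 points for complex I stand between 6.04 and 6.89, above 7 of the 8 normal arrays (4.55 to 5.91), with normal replicate 3 at 6.79.

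H2 lesions against normal cells gave the clearest difference. Among subunit and assembly genes 8 rose, and none fell, by limma with Benjamini-Hochberg adjustment over all genes. That is 8 of 90 members (8.89%), while 2.89% of all genes were called higher and 0.495% lower. The differences of 74 members (82.2%) were positive, against 46.3% of all genes, with a median of 0.85, beside one of -0.04 for the whole table. With the p unadjusted and under 0.05, 49 members were higher (54.4%, against 12.7% of all genes) and 1, Ndufb4, was lower (against 8.7%). In 10 members, or 11.1%, every H2 array stood above every normal array, against 2.7% of all genes.

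The difference was larger in genes with a higher mean signal, among members and among all genes. That mean includes the H2 arrays, so it is partly tied to the difference by construction and cannot show that level sets the difference. Of 2366 genes with a mean signal above 6, a limit chosen with the data in view, 78.0% were higher in H2, the median difference was 0.84 and 9.3% were called higher. Of the 46 members above 6, 45 were higher, the median difference was 1.71 and 5, or 10.9%, were called. The share of called members in this range was thus close to that of other bright genes, while their median difference was above the genes' median. All 10 members whose groups did not overlap were in this range, which makes 21.7% of them, against 10.7% of all genes above 6. High H2 values help to place a gene above 6. Ndufv3 had a mean of 5.93 in normal samples and 8.24 in H2, and Ndufb3 one of 5.88 and 7.93. These shares and medians, and those of the dimmer genes below, are therefore a description. The 44 dimmer members had a median difference of 0.18, with 29 (65.9%) higher and 3 (6.82%) called higher. Among all genes at or below 6 the median was -0.08, with 41.6% higher and 1.93% called higher.

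**Figure D2:**
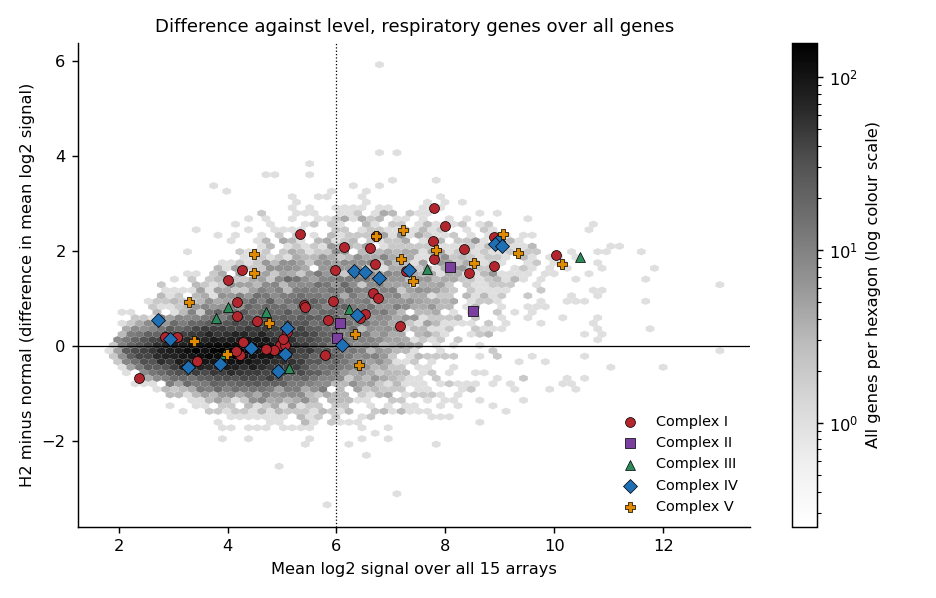
Difference between H2 and normal arrays against mean log2 signal over all 15 arrays, for all genes (grey hexagons, darker where more genes lie, log colour scale) and for the members (symbols by complex). Members to the right of the dotted line at 6 had a median difference of 1.71 and those to its left 0.18.

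Complex I oxidises NADH, and 6 of its 44 members (13.6%) rose in H2, against 2.89% of all genes and 9.3% of genes above 6. Ndufv3, an accessory subunit of the NADH-oxidising arm, read 7.98, 8.30, 8.32 and 8.37 in H2 lesions and 6.72, 6.89 and 6.94 in H1 lesions, against a lowest of 4.54, a median of 5.97 and a highest of 7.72 in normal samples. The H2 values stood above all others. The difference between H2 and normal was 2.32 ± 0.51, or 4.98-fold (limma adjusted p = 0.0244). Ndufa2, an accessory subunit of the same arm, read 9.96, 10.05, 10.08 and 10.11 in H2 and 8.33, 8.85 and 8.92 in H1, against 6.85, 8.52 and 9.40 as the lowest, median and highest normal values. Its 4 H2 values lay above every other array, and it rose by 1.68 ± 0.41, or 3.21-fold (limma adjusted p = 0.0361).

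Ndufb3 belongs to the membrane arm of complex I. It read 7.41, 8.03, 8.08 and 8.22 in H2 and 6.73, 6.83 and 6.91 in H1, against 3.38, 6.11 and 7.41 as the lowest, median and highest normal values. The lowest H2 array (7.410) and the highest normal array (7.407) all but touched. It rose by 2.06 ± 0.53, or 4.17-fold (limma adjusted p = 0.0440). Ndufa4, long listed with complex I and since placed with cytochrome c oxidase, rose by 1.83 ± 0.46, or 3.55-fold (limma adjusted p = 0.0398). It read 8.84, 8.92, 9.03 and 9.23 in H2 and 7.68, 7.68 and 8.11 in H1, against 5.55, 7.04 and 8.52 as the lowest, median and highest normal values. All 4 H2 arrays were above all normal arrays.

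The other called complex I members overlapped with normal samples. Ndufa6, an accessory subunit of the LYR motif family, rose by 1.60 ± 0.38 to 5.37 ± 0.34 in H2 lesions, against 3.77 ± 0.80 in normal samples (limma adjusted p = 0.0328). The assembly factor Ndufaf2 rose by 1.60 ± 0.41 to 7.03 ± 0.65 in H2, against 5.43 ± 0.83 in normal samples (limma adjusted p = 0.0423). In each, 1 normal array reached into the H2 range. The normal mean of Ndufa6 was under 3.99, the middle of the probe set means, so it was near the background and the fold is uncertain.

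Among the remaining members of complex I, Ndufb9 had an adjusted p of 0.0504 at a difference of 2.03, just outside the threshold. Ndufb5 had the highest difference of all members, 2.90, with non-overlapping groups, and an adjusted p of 0.0764. Ndufb7, the brightest member of the complex, read 11.40 ± 0.26 in H2 and 9.68 ± 0.34 in H1, against 9.49 ± 2.15 in normal samples, with an adjusted p of 0.229 for H2. The wide normal SD came from replicate 2, at 4.96. Ndufb4, the dimmest, had a mean of 1.87 ± 0.09 in H2 and 2.62 ± 0.23 in H1, against 2.55 ± 0.57 in normal samples, all below 3.99. Ndufa4l2, a paralogue of Ndufa4 known as a hypoxia-induced gene, differed by 0.004 (95% interval -0.40 to 0.41). The 8 assembly factors had a median difference of 0.24 and the 36 other members of complex I one of 0.97.

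**Figure D3:**
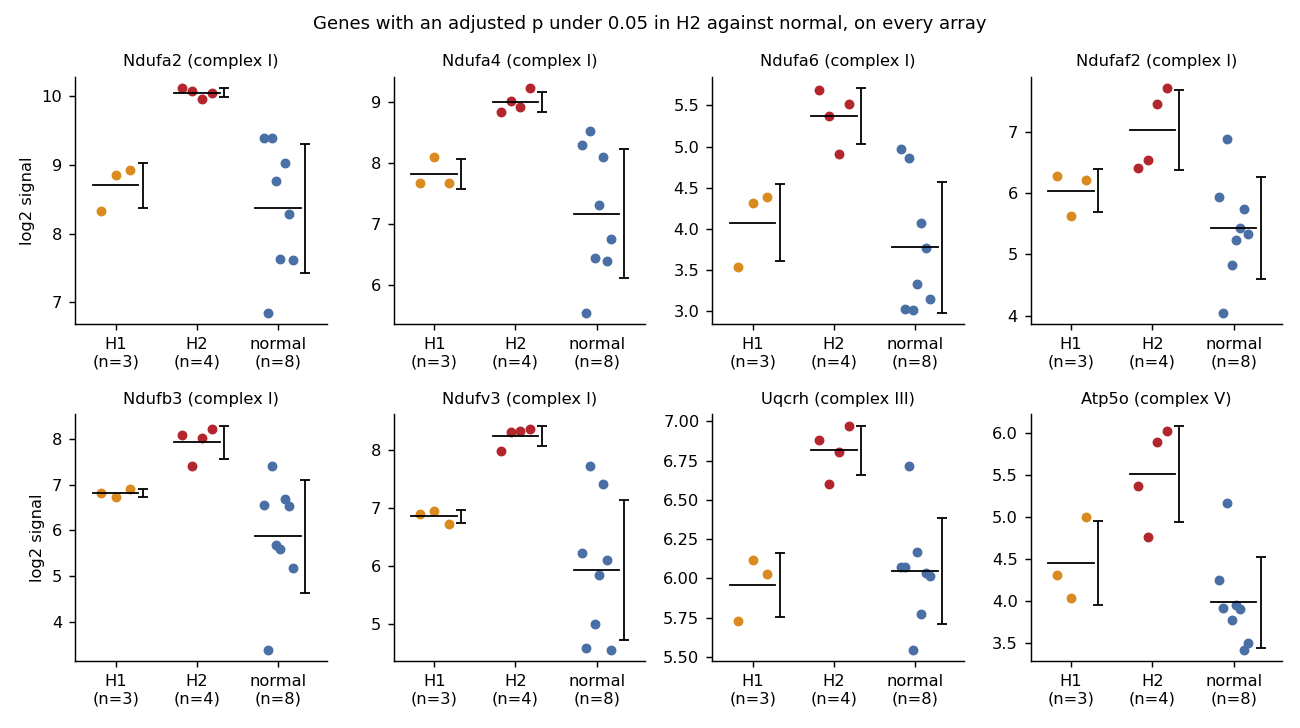
Log2 signal on every array of the 8 members called in H2 against normal. Points are arrays, bars are group means and error bars 1 SD; for Ndufv3 the 4 H2 points stand between 7.98 and 8.37 and the 8 normal points between 4.54 and 7.72.

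Complex II links the citric acid cycle to the chain, and none of its 4 subunits was called, although all were higher in H2 with a median difference of 0.61. Sdha, the flavoprotein that oxidises succinate, read 8.65, 8.96, 9.33 and 9.97 in H2 and 7.11, 8.25 and 8.40 in H1, against 4.92, 7.68 and 9.82 as the lowest, median and highest normal values. Its difference of 1.67 ± 0.66 had an adjusted p of 0.162. Sdhd, a membrane anchor, differed by 0.74 ± 0.31 (adjusted p = 0.176). The iron-sulphur subunit Sdhb and the anchor Sdhc differed by 0.48 and 0.16. H2 and normal values overlapped for each of the 4 genes.

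Complex III passes electrons from ubiquinol to cytochrome c. Of its 8 members 1 (12.5%, against 2.89% of all genes) rose, Uqcrh, the hinge protein that helps cytochrome c bind. It read 6.60, 6.81, 6.88 and 6.97 in H2 and 5.73, 6.03 and 6.12 in H1, against 5.54, 6.05 and 6.72 as the lowest, median and highest normal values. One normal array, replicate 3, reached above the lowest H2 array. The difference was 0.77 ± 0.20, or 1.70-fold, the smallest of the 8 called (limma adjusted p = 0.0435), and a dimmer second probe set differed by 1.20. Uqcrb, the brightest member of the complex, had H2 values of 11.34–12.11, all above a highest normal value of 11.33, but the adjusted p of its difference of 1.86 was 0.114. The core subunit Uqcrc2 differed by 1.61 (0.0685), Uqcr11 by 0.82 (0.104), the Rieske iron-sulphur protein Uqcrfs1 by 0.70 (0.181) and Uqcr10 by 0.58. The other 2 members had negative differences, Uqcrc1 of -0.48 and Uqcrq of -0.17. The median of the 8 members on an array averaged 5.02 ± 0.37 in H2 and 4.97 ± 0.17 in H1, against 4.99 ± 0.23 in normal samples.

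Complex IV, cytochrome c oxidase, had no called member among 17, with a median difference of 0.53 and 12 positive differences. Ndufa4, grouped with complex I by its name, is not among these 17. At an unadjusted p under 0.05, 7 members (41.2%) were higher and 0 lower. The share higher was 12.7% of all genes and 41.8% of genes with a mean above 6. Cox6c read 10.13, 10.26, 10.45 and 10.45 in H2 and 8.09, 9.45 and 9.54 in H1, against 5.56, 8.23 and 9.89 as the lowest, median and highest normal values. Its H2 arrays stood above all others, and its difference of 2.14 ± 0.65 had an adjusted p of 0.0795. Cox7a2l, an assembly factor of supercomplexes, differed by 2.10 ± 0.69 (adjusted p = 0.102).

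Several subunits of complex IV exist as a ubiquitous form and as a form restricted to heart and skeletal muscle, lung or testis. This grouping was made with the values known, and is a description. The 5 ubiquitous forms (Cox4i1, Cox6a1, Cox6b1, Cox7a2, Cox8a) had differences of 0.38, 1.59, 1.56, 1.42 and 0.01 between H2 and normal. The 7 restricted forms had a median of -0.17, with 2 above 0. Cox4i2, the form known from lung, read 3.62 ± 0.21 in H2 and 3.82 ± 0.34 in H1, against 4.01 ± 0.29 in normal samples, all near the background. None of these 12 genes passed the test. Cox6a2, a muscle form, read 6.76–6.88 in H2 and 6.21–6.43 in H1, against 5.47–7.86 in normal samples. Its highest value was in normal replicate 3, as was that of Cox8b (6.41), another muscle form. That array also had Myh6 at 9.67, the cardiac actin Actc1 at 6.89 and the troponin Tnnc1 at 7.38, whereas H1 and H2 arrays had Myh6 at 2.14–2.91. The summed signal of 16 muscle markers was 250–297 in H1, 244–306 in H2 and 234–326 on the other 7 normal arrays, against 1380 in normal replicate 3.

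**Figure D4:**
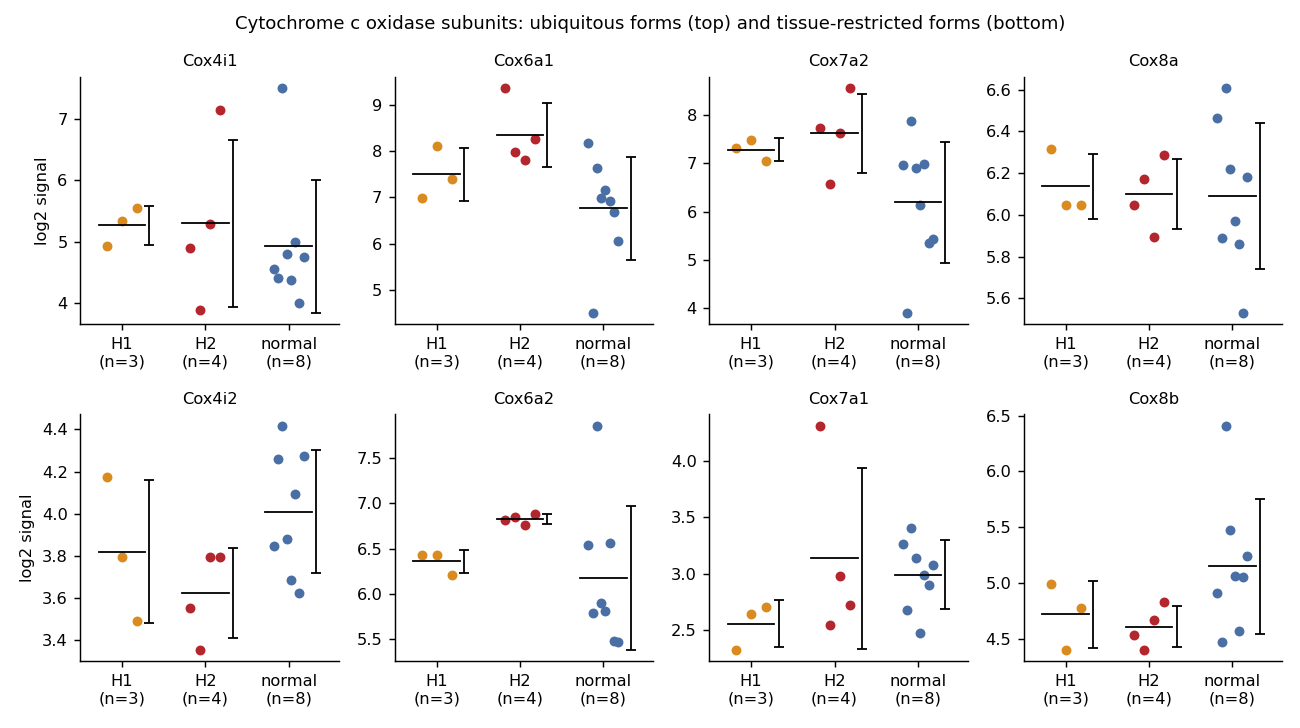
Log2 signal on every array of 4 ubiquitous forms of cytochrome c oxidase subunits (top row) and of 4 tissue-restricted forms of the same subunits (bottom row). Points are arrays, bars group means and error bars 1 SD, each panel on its own scale; the highest normal point of Cox6a2, at 7.86, and of Cox8b, at 6.41, is the same array.

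Complex V makes ATP, and its members had the highest median difference of the 5 complexes in the fit without a covariate, 1.73. Of the 17 differences, 15 were above 0. At an unadjusted p under 0.05, 12 members (70.6%) were higher, against 12.7% of all genes and 41.8% of genes with a mean above 6. With array spread as a covariate the median of complex V was 0.05, below those of complexes III and I. Ranked within its own array, the median complex V member stood at percentile 93.9 in H2 and 94.8 in H1, against 85.1 in normal samples. After adjustment 1 member (5.88%) rose, against 2.89% of all genes. Atp5o, the oligomycin sensitivity protein that joins the catalytic head to the peripheral stalk, read 4.76, 5.38, 5.90 and 6.03 in H2 and 4.03, 4.31 and 5.01 in H1, against 3.41, 3.91 and 5.17 as the lowest, median and highest normal values. Only normal replicate 3 reached into the H2 range. The difference was 1.53 ± 0.32, or 2.89-fold (limma adjusted p = 0.0201), and a second probe set differed by 1.91. The normal mean, 3.985, was just under 3.99, so here too the fold is uncertain.

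Atp5pb, subunit b of the peripheral stalk, had a larger difference and a wider spread. It read 6.50, 8.18, 8.49 and 8.94 in H2 and 7.42, 7.77 and 7.81 in H1, against 3.69, 5.83 and 7.42 as the lowest, median and highest normal values. The adjusted p of its difference of 2.31 ± 0.64 was 0.0587. Of the 3 genes for subunit c, which forms the rotor ring, Atp5g3 differed by 1.74 ± 0.48 (adjusted p = 0.0596), Atp5g2 by 0.47 and Atp5g1 by -0.17. Atp5md, a small accessory subunit, differed by 2.02 (0.0660), and Atp5h, subunit d, by 1.73 (0.215). The probe set of Atp5b, the catalytic beta subunit, averaged 3.29, again under 3.99, and can say little about that gene.

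H1 lesions against normal cells gave no called member. The background was 0.011% of genes called higher and 0 lower. With the p unadjusted and under 0.05, 2 members were higher (2.22%, against 1.85% of all genes) and 0 lower (against 2.39%). They were Atp5pb, which read 7.67 ± 0.21 in H1 (n = 3) and 5.72 ± 1.35 in normal samples (n = 8), a difference of 1.95, and Ndufa1, a membrane-arm subunit of complex I, at 7.36 ± 0.26 in H1 and 5.96 ± 1.18 in normal samples, a difference of 1.40. Both had an adjusted p of 0.997. The median over the 90 members was 0.18, beside -0.05 over all genes, and 58 differences (64.4%) were positive, against 43.5% of all genes. By complex the medians were 0.16 (I), 0.15 (II), -0.02 (III), 0.05 (IV) and 0.50 (V). For the genes called in H2 with the lowest p, the H1 difference was 0.92 for Ndufv3 (95% interval -0.27 to 2.12) and 0.46 for Atp5o (-0.28 to 1.21).

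**Figure D5:**
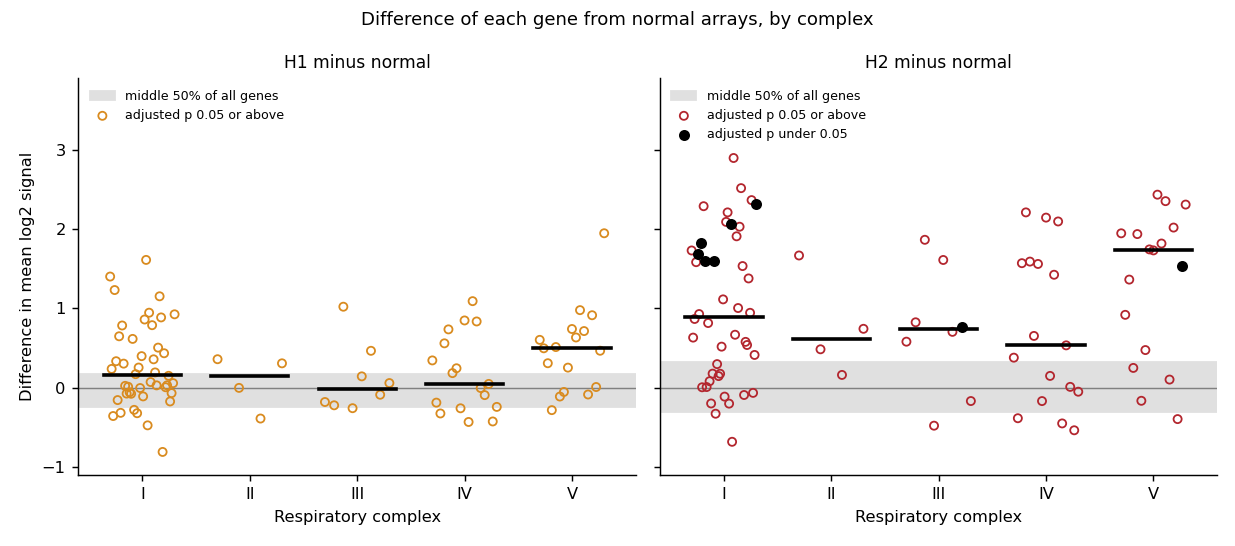
Difference in mean log2 signal of each member from normal arrays, by complex, for H1 (left) and H2 (right). Filled black points had an adjusted p under 0.05, thick bars are medians of a complex and the grey band holds the middle 50% of all genes; the H2 medians run from 0.53 in complex IV to 1.73 in complex V.

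H1 was also set against H2 directly. No member was called at an adjusted p under 0.05, and over all genes 0% were called higher in H1 and 0.0055% lower. The median difference was -0.61, beside -0.06 over all genes, and 76 members were lower in H1 (84.4%, against 55% of all genes). With the p unadjusted and under 0.05, 13 members were lower in H1 (14.4%, against 7.41% of all genes) and 1, Ndufb4, was higher (against 4.9%). Uqcrh had the lowest p, with a difference of -0.86 and an adjusted p of 0.299. In 32 members (35.6%) every H1 array stood below every H2 array, against 10.1% of all genes, and in 1, Ndufb4, above, against 8.1%. Among genes with a mean above 6, every H1 array stood below every H2 array in 26 of 46 members (56.5%), against 28.3% of all such genes. That mean includes the H2 arrays, so these shares too are a description.

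All 7 lesions together against normal cells gave no called member, with 0.28% of all genes called higher and 0.011% lower. With the p unadjusted and under 0.05, 34 members were higher (37.8%, against 8.1% of all genes) and 0 lower (against 4.66%). Atp5pb had the lowest p, at a difference of 2.15 and an adjusted p of 0.0928. The median over members was 0.54, beside -0.06 over all genes, and 70 members (77.8%) were higher, against 42.3% of all genes.

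Several measures of the arrays moved with the H2 result. H2 arrays had a wider spread than most normal arrays. Fitted with array spread as a covariate, no member was called in H2 against normal, and the median difference was 0.17. By complex the medians were then 0.31 (I, 33 of 44 positive), -0.08 (II), 0.42 (III), -0.15 (IV, 6 of 17 positive) and 0.05 (V, 9 of 17 positive). With the 3′ to 5′ difference of the Actb or the Gapdh control probe sets, which varies with RNA state and amplification, as a covariate, no member was called, but the differences were nearer to those without a covariate. The complex I median was 0.66 with Actb (35 of 44 positive) and 0.63 with Gapdh (36 of 44), and the complex V median 1.01 and 0.83. The 3′ to 5′ difference of Actb averaged -0.003 ± 0.23 in H2 and -0.70 ± 0.60 in H1, against -0.63 ± 0.62 in normal samples. The part of array spread and of the control probe sets in the result was not tested beyond these fits. The part of cell content, type 2 cells and macrophages included, was not tested. In captured tissue, more cells of a type and more RNA per cell cannot be told apart.

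The count of called members also turned on single arrays. Without H2 replicate 6 or H2 replicate 7 no member was called, and without normal replicate 3, the array with muscle transcripts, 33 were. Without normal replicate 1 the count was 22, without normal replicate 6 it was 11, without normal replicate 2 it was 10, and without normal replicates 2 and 3 together, an alternative added once the data were known, it was 30. It was 1 without H2 replicate 5, 2 without normal replicate 4, 5, 7 or 8, 3 without H1 replicate 3, 4 without H2 replicate 1 or H1 replicate 4, and 5 without H1 replicate 2. Over these 15 fits with 1 array left out, Atp5o was called in 13 and Ndufv3 in 12, Ndufa6 in 7, Ndufa2 in 6, Ndufa4, Ndufaf2 and Ndufb3 in 4 each, and Uqcrh in 2. The median difference of the members stayed between 0.68 and 1.08 in these fits, and was 1.0 without normal replicates 2 and 3. The number of all genes called higher moved too. It was 525 in the fit reported, 108 without H2 replicate 6 and 102 without H2 replicate 7. Without normal replicate 3 it was 1104, and without normal replicate 1 it was 821.

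Genes with more than 1 probe set show how far the choice of probe set matters. Of 51 such members, 25 had every probe set higher in H2, 2 had every one lower and 24 had probe sets in both directions. Sdha is an example, with probe sets at 1.67, 0.83, 0.24 and -0.62, the last of them among the dimmest. The 89 probe sets that did not stand for their gene had a median difference of 0.39, and 61 were higher in H2.

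Genes that work beside the chain were taken from lists of known roles. Of 15 measured genes of the citric acid cycle and pyruvate dehydrogenase, 4 were called higher in H2 against normal and 0 lower, with a median difference of 1.44. That is 26.7%, against 2.89% of all genes and 9.3% of those above 6. Dlat and Dld, components of the pyruvate dehydrogenase complex, rose by 2.36 and 1.64 (limma adjusted p = 0.0127 and 0.0237), the succinyl-CoA ligase subunit Sucla2 by 1.55 (0.0169), and citrate synthase, Cs, by 1.86 (0.04995). The normal means of Dlat (3.39) and Dld (3.83) were under 3.99, so the sizes of their changes are uncertain. Of 76 mitochondrial ribosomal proteins, which translate the chain's mitochondrially encoded subunits, 9 (11.8%) rose and 0 fell, against the same 2.89% and 9.3%, with a median of 0.40. Mrpl51 had the largest difference among the 9, at 8.91 ± 0.14 in H2 and 6.89 ± 0.77 in H1, against 6.18 ± 0.47 in normal samples (2.73, adjusted p = 0.000404).

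The electron carrier cytochrome c, Cycs, rose by 2.10 to 9.10 ± 0.41 in H2 lesions, against 7.01 ± 1.07 in normal samples (limma adjusted p = 0.0328), and was the only one called of 14 genes of cytochrome c and ubiquinone. The import receptor Tomm20 rose by 1.49 (0.0237), as 1 of 16 carriers, pores and import genes, all 16 of which had positive differences. Aifm1, needed for complex I biogenesis, rose by 1.56 (0.0422), as 1 of 10 further complex I factors, and the complex II assembly factor Sdhaf2 by 1.14 (0.0423), as 1 of 14 factors of complexes II, III and V. The normal means of Aifm1 (3.76) and Sdhaf2 (3.61) were under 3.99 as well. Beside these single called genes, 2.89% of all genes were called higher. None of 18 complex IV assembly and copper delivery genes was called. No gene of these lists was called in H1 against normal, in H1 against H2 or in all lesions against normal.

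Promoter sequence was examined because many genes of the chain are known targets of the transcription factors NRF1 and GABP, an ETS family factor. RefSeq promoters (GRCm38.p6, 250 bases before to 50 bases after the start) matched 74 of the 90 members. The NRF1 motif, searched as GCGCANGCGC on both strands, stood in 17 of these (23.0%), against 8.63% of 14368 genes with a promoter. The ETS motif, CCGGAAG on both strands, stood in 19 (25.7%), against 15%, and the YY1 motif, ATGGCGGC on both strands, in 6 (8.11%), against 4.13%. The median difference between H2 and normal was 1.38 in members with the NRF1 motif and 0.87 in the 57 without it, 1.11 with the ETS motif and 0.92 without it, and 0.74 with the YY1 motif and 0.92 without it. Over all genes the medians with and without the NRF1 motif were 0.10 and -0.04. They were 0.098 and -0.051 for the ETS motif, and 0.164 and -0.035 for the YY1 motif. A match to these letters is a description and not a bound site.

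The promoters of Atp5h, Atp5k, Cox6a1 and Sdhd held both motifs. Sdhd and the called gene Uqcrh are shown over the 120 bases before the start, and the others over 30 bases around a motif. Capitals mark the motifs, with the ETS motif always read on its other strand, as CTTCCGG. In Atp5o and Ndufa6, shown further below, the NRF1 motif is also read on its other strand, as GCGCNTGCGC. Sdhd carries first the NRF1 and then the ETS motif (chr9:50603850-50603969, minus strand), and Uqcrh an ETS motif close to its start (chr4:116075071-116075190, minus strand).
Sdhd: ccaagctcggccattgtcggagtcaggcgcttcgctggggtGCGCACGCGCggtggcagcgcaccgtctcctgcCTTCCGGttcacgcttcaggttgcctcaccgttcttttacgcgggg
Uqcrh: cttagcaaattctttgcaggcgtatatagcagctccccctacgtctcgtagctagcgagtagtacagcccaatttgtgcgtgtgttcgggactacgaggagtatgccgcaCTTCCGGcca

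The sites of the called genes Atp5o (chr16:91931602-91931631) and Ndufa6 (chr15:82354249-82354278), both on the minus strand and both at or just after the start, and of Atp5h (chr11:115420041-115420070 and chr11:115419939-115419968), Atp5k (chr5:108434430-108434459 and chr5:108434369-108434398) and Cox6a1 (chr5:115349101-115349130, chr5:115349056-115349085 and chr5:115348956-115348985), also on the minus strand, read as follows.
Atp5o NRF1: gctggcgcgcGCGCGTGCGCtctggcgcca
Ndufa6 NRF1: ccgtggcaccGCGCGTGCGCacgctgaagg
Atp5h NRF1: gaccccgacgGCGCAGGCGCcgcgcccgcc
Atp5h ETS: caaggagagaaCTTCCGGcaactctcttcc
Atp5k NRF1: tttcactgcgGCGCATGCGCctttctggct
Atp5k ETS: cctcagttgagCTTCCGGcgcgaaggtcac
Cox6a1 NRF1, outer: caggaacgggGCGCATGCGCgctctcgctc
Cox6a1 NRF1, inner: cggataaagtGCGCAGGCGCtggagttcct
Cox6a1 ETS: ccccatttccgCTTCCGGcgcgccggtgta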

How the data were processed

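Total RNA of 15 captures was extracted, amplified and hybridised to Affymetrix arrays, per the labels' protocols and the series' design text. The authors deposited a log2 signal for each probe set, made with affy and RMA by the submitters' processing notes, with no version. RMA corrects background, quantile-normalizes probes and summarises them. It does not equalise the spread of summarised values between arrays. No depth exists for arrays, and their number limits the precision.

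Of 45101 probe sets, 64 controls were left out, 34945 carried 1 gene symbol, 932 several and 9160 none. A gene with several probe sets was represented by the one of highest mean, and no filter on low values was used, so all 90 members were tested. Groups came from the source names. limma (version 3.58.1, R 4.3.3), with lmFit and eBayes on the log2 values, fitted lesions against normal with 2 groups and the other 3 comparisons as contrasts of 3 groups, on all 15 arrays. Benjamini-Hochberg adjustment ran over 18193 genes, and called means an adjusted p under 0.05. The fit was tested on simulated data. Fold changes are 2 to the power of the difference.

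Named members were those called, the lowest p values, brightest and dimmest of each complex, and isoform groups, and from each pathway list the lowest p values. Ndufb5, Ndufb9, Uqcrc1, Uqcrq and the genes of the quality check were picked with their values known. The members, lists and tests were chosen with earlier results of these data known. The labels do not say whether replicate numbers pair the samples, and the fit reported did not pair them. With group means removed, same-numbered lesion and normal arrays correlated at -0.14 to 0.38. Of 7 lesions, 1 correlated best with its own number. Array spread and tissue makeup differed too, so these correlations cannot decide whether same-numbered captures shared an animal. Alternatives covered scaling, probe set choice, the prior, weights, covariates and arrays left out.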

Additional observations from a re-analysis of the deposited data

Results flagged for a closer look

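Within groups of 4 to 10 samples, 100 sets of values (the named members, the medians of the 5 complexes and that of all members, in H2 and in normal samples) were examined by Dixon's test for a single sample far from the rest. In 7 of them, all of single genes, 1 sample stood apart. Chance alone gives about 1 such set in 20. In H2 lesions, Cox6b1 read 8.76 in replicate 7, against 7.27 on the nearest array. Sdhc read 7.39 on the same array, against 5.93 on the nearest. Ndufv3 read 7.98 in H2 replicate 1, below the nearest value of 8.30, and its H2 values still lay above all normal ones. In normal samples, replicate 3 was high for Atp5b (4.88, nearest 2.90), Cox4i1 (7.50, nearest 5.00) and Cox6a2 (7.86, nearest 6.56). Normal replicate 2 was low for Ndufb7, at 4.96, with the nearest value at 8.57. Of the 7, 3 were thus normal replicate 3 and 2 were H2 replicate 7. The causes were not tested.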

How the results depend on the processing

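The count of members called in H2 against normal, 8 in the fit reported, was 3 with arrays centred and scaled to 1 spread, 1 with quantile normalization repeated, 13 with the mean of a gene's probe sets, 3 with a trended robust prior, 42 with array weights (41 higher, 1 lower), 2 with only the compared arrays fitted and 5 with the 2 normal arrays narrowest in spread removed. It was 0 with array spread, the Actb or the Gapdh control difference as a covariate, and 30 without normal replicates 2 and 3, an alternative chosen after seeing the data. With the replicate number as a block it was 0, though the labels do not say whether that number pairs the samples. This block changed no call in the other comparisons. Leaving out 1 array gave 0 to 33 called. Of all genes, 525 were called higher in the fit reported, 1586 with array weights and 874 without normal replicates 2 and 3. The number was 257 with arrays centred and scaled, 140 with quantile normalization repeated and 412 with the mean of a gene's probe sets. It was 57, 74 and 39 with array spread, Actb and Gapdh as covariates, and 34 with the replicate block. For all lesions against normal, 0 were called in the fit reported and 1 each with the most variable probe set of a gene, with array weights, and with normal replicates 2 and 3 removed, and 0 to 3 with 1 array left out. With array spread as a covariate, the median difference of the members was 0.17 in place of 0.85 for H2 against normal, and 0.01 in place of -0.61 for H1 against H2. No member was called in H1 against normal or H1 against H2 under any of 15 alternatives or 15 fits with 1 array left out. The causes of these changes were not tested. The limits are the 3 to 8 arrays a group, unequal array spread, unknown sharing of animals, and probe sets near the background, since 12 of 90 members had a mean under 3.99.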

Other observations

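Regulators of mitochondrial biogenesis and genes of alternative oxidation stood beside the respiratory chain without a called gene. Of 17 measured biogenesis regulators, 12 were higher in H2 than in normal samples, with a median difference of 0.30. Ssbp1, which binds single-stranded mitochondrial DNA during replication, read 10.24 ± 0.33 in H2 and 8.94 ± 0.49 in H1, against 8.09 ± 1.80 in normal samples, with an adjusted p of 0.123 for H2. Ppargc1b, a coactivator of mitochondrial genes, was near the background in every group, at 3.26 ± 0.56 in H2, 2.72 ± 0.28 in H1 and 2.63 ± 0.16 in normal samples.

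Other enzymes also feed electrons to ubiquinone. Of 9 measured genes of uncoupling and alternative oxidation, 6 had positive differences between H2 and normal. Sqor, which oxidises sulphide, differed by 1.27 (adjusted p = 0.0521), and Etfa, a carrier of electrons from fatty acid oxidation, by 2.21 (0.109). Dhodh, which joins pyrimidine synthesis to the chain, differed by -1.18 (0.0579), at 3.57 ± 0.57 in H2 and 4.73 ± 0.64 in H1, against 4.75 ± 0.53 in normal samples.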
